A study of Homo sapiens with 6 samples.

Results

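A set of 44 genes of glucose transport, glycolysis, lactate handling and the response to low oxygen was followed in 22Rv1-ABHD5 cells grown without and with doxycycline (Dox). The members were listed by gene symbol, and all 44 were found among the 27470 genes of the count table. After a filter on low counts, 38 of them were tested along with the rest of the 12233 genes tested. With Dox, 10 of these 38 fell and 6 rose, and 22 did not pass the threshold. These are 26.3% lower and 15.8% higher, against 13.7% and 11.9% of all genes tested. The members were chosen with earlier results of these data known. Their shares were not matched for expression level, which bears on how small a change can be called.

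22Rv1 is a human castration-resistant prostate cancer line. The 22Rv1-ABHD5 cells carry a lentiviral pInducer20 vector with ABHD5, the coactivator of the triglyceride lipase ATGL, behind a Dox-inducible promoter, and were selected with G418, so that both conditions share the vector and the selection. RNA was taken from 3 replicates without Dox (labelled control) and 3 with Dox (labelled as overexpressing ABHD5) after 48 h, and the 3' ends of polyadenylated transcripts were sequenced. No parent cells with Dox were analysed here, so an effect of Dox itself and one of ABHD5 cannot be told apart. Nothing states that the replicates were separate cultures, so the p-values below measure the spread between these libraries, which may be technical.

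Between 3394672 and 7271771 reads per library fell on genes. Reads on no gene were 32.5% to 34.6% of those listed without Dox and 35.6% to 39.5% with Dox, and the part of this difference in the results was not tested. ABHD5, the induced gene, was at 63.5, 58.0 and 62.8 CPM (reads scaled to a common library total) without Dox and at 125.9, 130.8 and 91.7 CPM with Dox, higher by 0.91 on the log2 scale (standard error 0.148, adjusted p = 0.000198), and the conditions did not overlap. All 8 prostate luminal markers reported here passed the filter on low counts, among them the keratin KRT18 at 248 ± 7.77 CPM (SD, n = 3) without Dox. Of these 8 markers 4 fell with Dox (KLK2, TMPRSS2, KRT18 and EPCAM), against 13.7% of all genes tested, as a count and without a test of the list. The summed level over all 8 was 654 to 728 CPM without Dox and 495 to 586 CPM with Dox. Of 12 markers of blood, stromal, endothelial, basal and muscle cells, 10 were too low to test, and their sum was 5.89 to 6.79 CPM without Dox and 8.91 to 11.2 CPM with Dox. CD3E, PECAM1, VWF, KRT5, KRT14 and DES were at 0 in all 6 libraries. COL1A1, the collagen chain of fibroblasts, was the only one of these 12 past the threshold, at 1.55 to 3.66 CPM without Dox and 3.62 to 7.62 CPM with Dox (log2 fold change 1.22, adjusted p = 0.0313). Its libraries without Dox would not by themselves have passed the filter on low counts, which favours a call of higher. The part of these marker shifts in the results below was not tested.

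Glycolysis splits glucose into pyruvate in the cytosol, and pyruvate is then either reduced to lactate and exported or oxidised in the mitochondrion through pyruvate dehydrogenase. The hypoxia-inducible factors (HIF) pair an oxygen-labile alpha subunit, HIF1A or EPAS1 (HIF-2 alpha), with the stable partner ARNT. When oxygen is scarce the alpha subunit escapes hydroxylation by the EGLN enzymes and destruction through VHL, and the pair binds a short DNA core and raises many glycolytic genes, with lactate dehydrogenase A and the enolase ENO1 among the classic targets. The alpha subunits are controlled largely at the protein level, which was not measured here.

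The HIF core is shown in 5 promoters because their genes carry the results below: a lactate and a glycolytic enzyme that fell, both HIF alpha subunits, and the pyruvate kinase that rose. Each run is the 250 bases before the RefSeq transcript start (GRCh38.p14), written 5' to 3' on the strand of the gene, with the core ACGTG or GCGTG in capitals where it occurs on either strand. A CACGTG carries 2 overlapping matches, since it reads the same on both strands. The windows are chr11:18394313-18394562 for LDHA (plus strand), chr1:8878687-8878936 for ENO1 (minus strand), chr14:61695263-61695512 for HIF1A (plus strand), chr2:46297157-46297406 for EPAS1 (plus strand) and chr15:72231191-72231440 for PKM (minus strand).
LDHA: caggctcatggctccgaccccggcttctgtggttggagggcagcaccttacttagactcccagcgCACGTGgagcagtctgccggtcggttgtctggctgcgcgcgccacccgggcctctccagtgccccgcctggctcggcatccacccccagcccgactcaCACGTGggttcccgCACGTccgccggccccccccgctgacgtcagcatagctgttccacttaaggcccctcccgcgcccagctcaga
ENO1: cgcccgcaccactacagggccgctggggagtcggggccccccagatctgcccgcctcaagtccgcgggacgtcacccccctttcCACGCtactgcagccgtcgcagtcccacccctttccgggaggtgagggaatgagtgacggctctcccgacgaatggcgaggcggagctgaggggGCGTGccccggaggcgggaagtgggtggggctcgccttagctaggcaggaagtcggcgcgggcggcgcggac
HIF1A: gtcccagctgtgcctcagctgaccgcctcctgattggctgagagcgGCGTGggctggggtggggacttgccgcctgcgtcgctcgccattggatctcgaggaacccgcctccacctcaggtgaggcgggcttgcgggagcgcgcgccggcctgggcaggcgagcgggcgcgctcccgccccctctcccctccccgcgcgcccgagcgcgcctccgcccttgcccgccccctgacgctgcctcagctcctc
EPAS1: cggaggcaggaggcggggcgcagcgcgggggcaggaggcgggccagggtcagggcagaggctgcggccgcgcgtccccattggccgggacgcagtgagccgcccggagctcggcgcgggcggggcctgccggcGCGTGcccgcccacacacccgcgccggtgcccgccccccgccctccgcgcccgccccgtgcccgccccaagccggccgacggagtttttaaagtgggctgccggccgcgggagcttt
PKM: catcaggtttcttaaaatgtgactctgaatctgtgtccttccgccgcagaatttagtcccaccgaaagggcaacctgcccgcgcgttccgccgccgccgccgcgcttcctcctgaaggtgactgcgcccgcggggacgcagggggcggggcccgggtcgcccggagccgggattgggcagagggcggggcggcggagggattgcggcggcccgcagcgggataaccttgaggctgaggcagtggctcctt
The run before LDHA held 5 matches, at both its CACGTG palindromes and 1 further site, that before ENO1 held 2, and those before HIF1A and EPAS1 held 1 each. The run before PKM held none, and its only match lay 13 bases after the start. The runs before TPI1 and LDHB, which also fell, held 0 matches, and those before ADM and CA12, which rose, held 1 each. Of the 44 members 38 were in the RefSeq table, and 27 of these (71.1%) held the core in the window from 250 bases before to 50 bases after the start, while 17012 of all 35116 promoter windows of that length (48.4%) held it. The 2 shares are of unlike sets. Each member has 1 window, while the larger set holds every window and was not limited to genes tested here. The core was found for 8 of 9 members that fell, 4 of 6 that rose, 12 of 18 that were tested without passing the threshold, and 3 of 5 that were too low to test, so it was frequent in every class. A match of 5 letters describes the window and is not evidence of binding.

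The comparison of the conditions asks which of these genes differed in RNA level when ABHD5 was induced. A gene was called when its p in edgeR's quasi-likelihood test, adjusted after Benjamini and Hochberg over all 12233 genes tested, was under 0.05, and log2 fold changes are with Dox against without Dox throughout. Of all genes tested, 13.7% were called lower and 11.9% higher, while of the 38 members tested 26.3% were lower and 15.8% higher. The members were chosen with earlier results of these data known, and the part of that choice or of their expression level in these shares was not tested. The median log2 fold change of the members was -0.17, against 0.016 for all genes tested, and 24 of the 38 values were negative. Without replicate 3 without Dox this median was -0.074, and without replicate 1 without Dox 3 members in place of 6 were called higher. Changes were mostly small: HIF1A and SLC16A1 were the only members that fell by at least 2-fold, and PFKP and EPAS1 the only ones that rose as much. In bulk RNA, fewer cells of a kind and less RNA per cell cannot be told apart. Lack of overlap between conditions is given below as a description only. The calls rest on the same libraries, and the share of all genes without overlap was not counted.

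**Figure D1:**
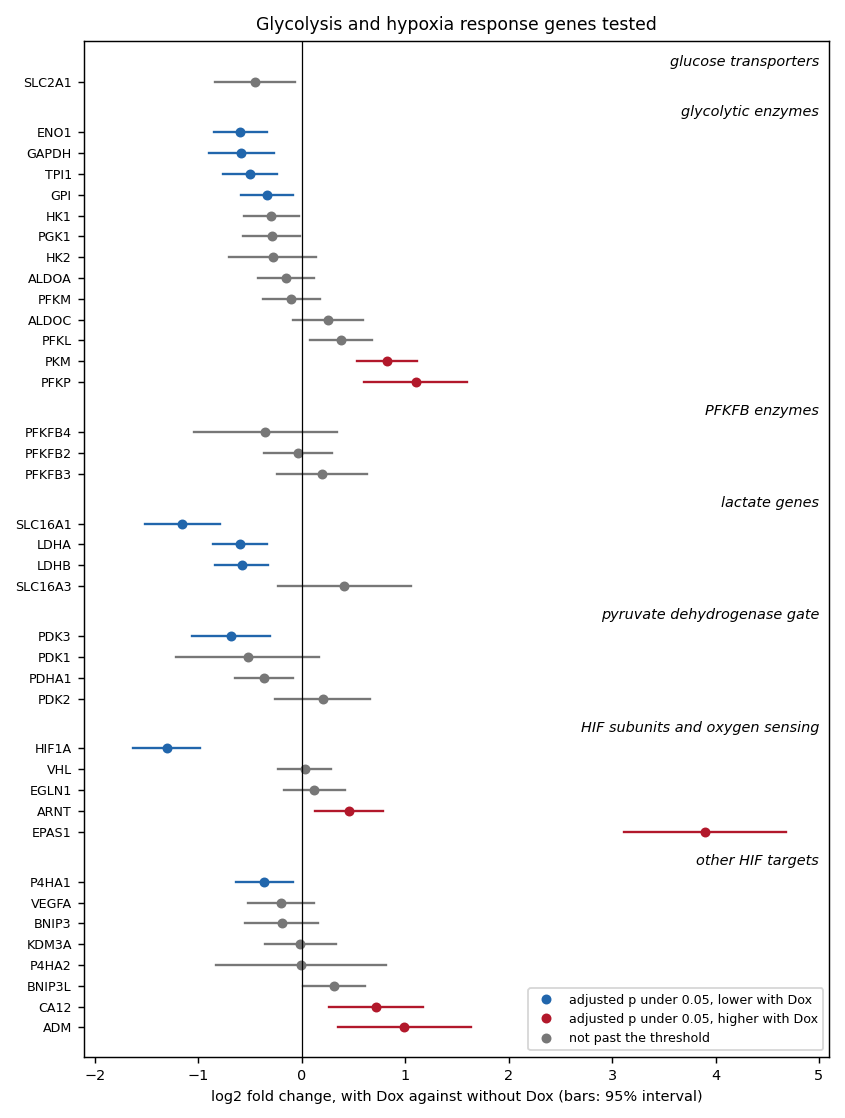
Log2 fold change with Dox against without Dox (x axis) of the 38 members tested, by role (y axis), with 95% intervals of the edgeR fit as bars. The members that fell (blue) reached from GPI at -0.34 to HIF1A at -1.30, those that rose (red) from ARNT at 0.46 to EPAS1 at 3.90, and the 22 in grey did not pass the threshold.

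The HIF alpha subunits moved in opposite directions. HIF1A (chromosome 14, 61695513 to 61748259 on hg38), the subunit found in nearly all cells, was at 284, 315 and 269 CPM without Dox and at 111, 148 and 93.7 CPM with Dox. Every library with Dox lay under every library without it, at 2.47-fold lower (log2 fold change -1.30, standard error 0.153, adjusted p = 7.59e-06). EPAS1 (chromosome 2, 46293667 to 46386697), the subunit with the narrower tissue range, was close to the limit of detection without Dox, with 7, 2 and 5 reads, and had 62, 52 and 163 reads with Dox. These are 1.83, 0.620 and 0.873 CPM against 13.5, 14.5 and 21.4 CPM, where 3 reads, taken as the limit of detection, are 0.394 to 0.930 CPM. The groups were far apart, with 3.90 as the log2 fold change (standard error 0.372, adjusted p = 6.30e-07). The fold of EPAS1 rests on 14 reads in all without Dox, so its size is less certain than its direction. Only its libraries with Dox took EPAS1 past the filter on low counts, and a gene tested for that reason can only come out higher. In the edgeR fit without that filter its log2 fold change was 3.88. EPAS1 made up 0.640%, 0.196% and 0.324% of the reads of both alpha subunits without Dox and 10.8%, 8.89% and 18.6% with Dox, so that HIF1A held most reads in every library.

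ARNT (chromosome 1, 150809713 to 150876708), the shared partner, was at 63.5, 51.2 and 64.8 CPM without Dox and 89.8, 63.7 and 92.1 CPM with Dox. Replicate 2 with Dox lay under 1 library without Dox, so the conditions overlapped, and its difference of 0.46 on the log2 scale (standard error 0.156, adjusted p = 0.0405) lost its call when replicate 1 or 2 without Dox or replicate 1 or 3 with Dox was left out (adjusted p 0.0911, 0.162, 0.161 and 0.127) and with the deposited normalized values (0.0619). VHL, the adaptor of the ubiquitin ligase that removes the alpha subunits, had a log2 fold change of 0.03 (95% interval -0.23 to 0.29). EGLN1, the main oxygen-sensing hydroxylase, had 0.12 (-0.17 to 0.41). Neither passed the threshold. Both intervals overlapped that of ARNT (0.13 to 0.78), and the difference between these genes was not tested. EGLN3, the inducible hydroxylase, had at most 7 reads in a library and was not tested.

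The lactate genes held the highest share of falls of any role, with 3 of 4 lower, against 13.7% of all genes tested. Their list is short and leaves out the transporter SLC16A7, given below, which rose by 1.50 on the log2 scale (edgeR adjusted p = 5.64e-06). LDHA (chromosome 11, 18394560 to 18408425), the dehydrogenase subunit that favours the making of lactate, was at 159, 183 and 193 CPM without Dox and 116, 118 and 119.9 CPM with Dox. The libraries with Dox lay close together and all under those without (log2 fold change -0.60, standard error 0.123, adjusted p = 0.00163). LDHB (chromosome 12, 21635342 to 21757857), the subunit that favours the use of lactate, was at 892, 906 and 923 CPM without Dox and 560.4, 624 and 636 CPM with Dox. It fell by 0.58 on the log2 scale (standard error 0.121, adjusted p = 0.00181), with no overlap. LDHA made up 15.1% to 17.3% of the reads of the pair without Dox and 15.9% to 17.1% with Dox.

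SLC16A1 (chromosome 1, 112911847 to 112957593), the monocarboxylate transporter MCT1 that carries lactate and pyruvate across the cell membrane, was at 42.6, 36.9 and 43.5 CPM without Dox and 15.7, 21.7 and 18.4 CPM with Dox. The conditions were wide apart, at 2.22-fold lower with Dox (log2 fold change -1.15, standard error 0.171, adjusted p = 8.27e-05). SLC16A3, the transporter MCT4 that exports lactate from glycolytic cells, was at 12.3, 9.92 and 5.06 CPM without Dox and 14.8, 12.0 and 8.93 CPM with Dox, values that overlapped (log2 fold change 0.41, 95% interval -0.23 to 1.05, adjusted p = 0.354). Its last exon is overlapped on the opposite strand by CSNK1D, which had 292 to 1017 reads per library and a log2 fold change of 0.38 (adjusted p = 0.0467). It is not stated whether strand was used in counting. Reads from the stretch shared by these 2 genes may have been left out as ambiguous or given to the wrong gene.

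Of the 14 glycolytic enzymes 13 were tested, 4 fell and 2 rose (30.8% and 15.4%, against 13.7% and 11.9% of all genes tested). TPI1 (chromosome 12, 6867119 to 6870948), the triose phosphate isomerase, was at 535, 616 and 543 CPM without Dox and 395, 377 and 427 CPM with Dox (log2 fold change -0.50, standard error 0.123, adjusted p = 0.00628). GAPDH (chromosome 12, 6534512 to 6538374), the dehydrogenase of the next step, was at 2784, 3154 and 2103 CPM without Dox and 1687, 1694 and 1988 CPM with Dox (log2 fold change -0.58, standard error 0.151, adjusted p = 0.00884). ENO1 (chromosome 1, 8861000 to 8879190), the main enolase, was at 441, 504 and 428 CPM without Dox and 312, 286 and 312 CPM with Dox (log2 fold change -0.59, standard error 0.123, adjusted p = 0.00174). None of the 3 overlapped between conditions, though for GAPDH the gap was narrow, between 1988 and 2103 CPM. The call of GAPDH was lost without replicate 2 without Dox (adjusted p = 0.0528) and without replicate 1 with Dox (0.0551). GPI (chromosome 19, 34359480 to 34402413), which turns glucose 6-phosphate into fructose 6-phosphate, was at 342, 323 and 311 CPM without Dox and 254, 239 and 278 CPM with Dox (log2 fold change -0.34, standard error 0.121, adjusted p = 0.0495). Its conditions did not overlap either, but its call was lost in 9 of 14 alternative analyses, among them 5 of the 6 that left out 1 library (adjusted p up to 0.163), upper-quartile normalization (0.0971) and library totals alone (0.201).

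The 2 enzymes that rose act at regulated steps. PKM (chromosome 15, 72199029 to 72231819), the pyruvate kinase of most proliferating cells, was at 232, 299 and 219.8 CPM without Dox and 406, 457 and 465 CPM with Dox. All libraries with Dox exceeded all without (log2 fold change 0.82, standard error 0.137, adjusted p = 0.000255). The counts are per gene, so the M1 and M2 forms of PKM were not separated. PFKP (chromosome 10, 3066333 to 3137718), the platelet form of phosphofructokinase, was at 9.93, 7.75 and 6.11 CPM without Dox and 16.7, 18.4 and 15.5 CPM with Dox, 2.14-fold higher and with no overlap (log2 fold change 1.10, standard error 0.237, adjusted p = 0.00231). Of the other forms of this enzyme, PFKL, the liver form, was at 81.8, 95.8 and 65.3 CPM without Dox and 104.8, 103.5 and 105.3 CPM with Dox, which did not overlap but did not pass the threshold (log2 fold change 0.38, adjusted p = 0.0608). PFKL passed it with library totals alone (adjusted p = 0.0144), upper-quartile normalization (0.0345), at least 10 counts in every library (0.0487), a replicate block (0.0296) or without replicate 2 without Dox (0.0241). PFKM, the muscle form, had -0.10 (95% interval -0.37 to 0.18).

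The other 5 glycolytic enzymes tested had log2 fold changes of -0.30 for HK1, -0.28 for HK2, -0.15 for ALDOA, 0.25 for ALDOC and -0.29 for PGK1, and none passed the threshold. The hexokinases HK1 and HK2 commit glucose to the cell, the aldolases ALDOA and ALDOC split its phosphate into trioses, and PGK1 makes ATP after GAPDH. HK1 did not overlap between conditions, at 162 to 196 CPM without Dox and 135 to 156 CPM with Dox, yet had an adjusted p of 0.0947. PGAM1, the mutase between PGK1 and ENO1, had 3 to 29 reads per library and was not tested. The summed level of the 14 enzymes was 4756 to 6072 CPM without Dox and 3995 to 4564 CPM with Dox, a sum in which GAPDH has the largest part. Several of these genes have processed copies in the genome: the annotation names 65 pseudogenes for GAPDH, 13 for PGAM1, 6 for LDHA, 5 for PKM, 4 each for ENO1 and TPI1 and 3 for LDHB. Reads aligned to more than 1 place were listed at 0, so how such reads were treated is not shown by the counts, and the values of these genes are uncertain to that extent. TPI1 is also overlapped at its last exon by SPSB2 on the opposite strand, with 118 to 205 reads per library and a log2 fold change of -0.32 (adjusted p = 0.168), and GAPDH by a gene with no symbol. In all, 10 of the 44 members have a gene on the opposite strand over the last exon, and TPI1 and GAPDH are the 2 called ones among them. A gene with no symbol lies over the last exon on the same strand for 4 members, the called GPI and LDHB and also ALDOA and EGLN1, and the part of such reads in their counts was not tested.

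**Figure D2:**
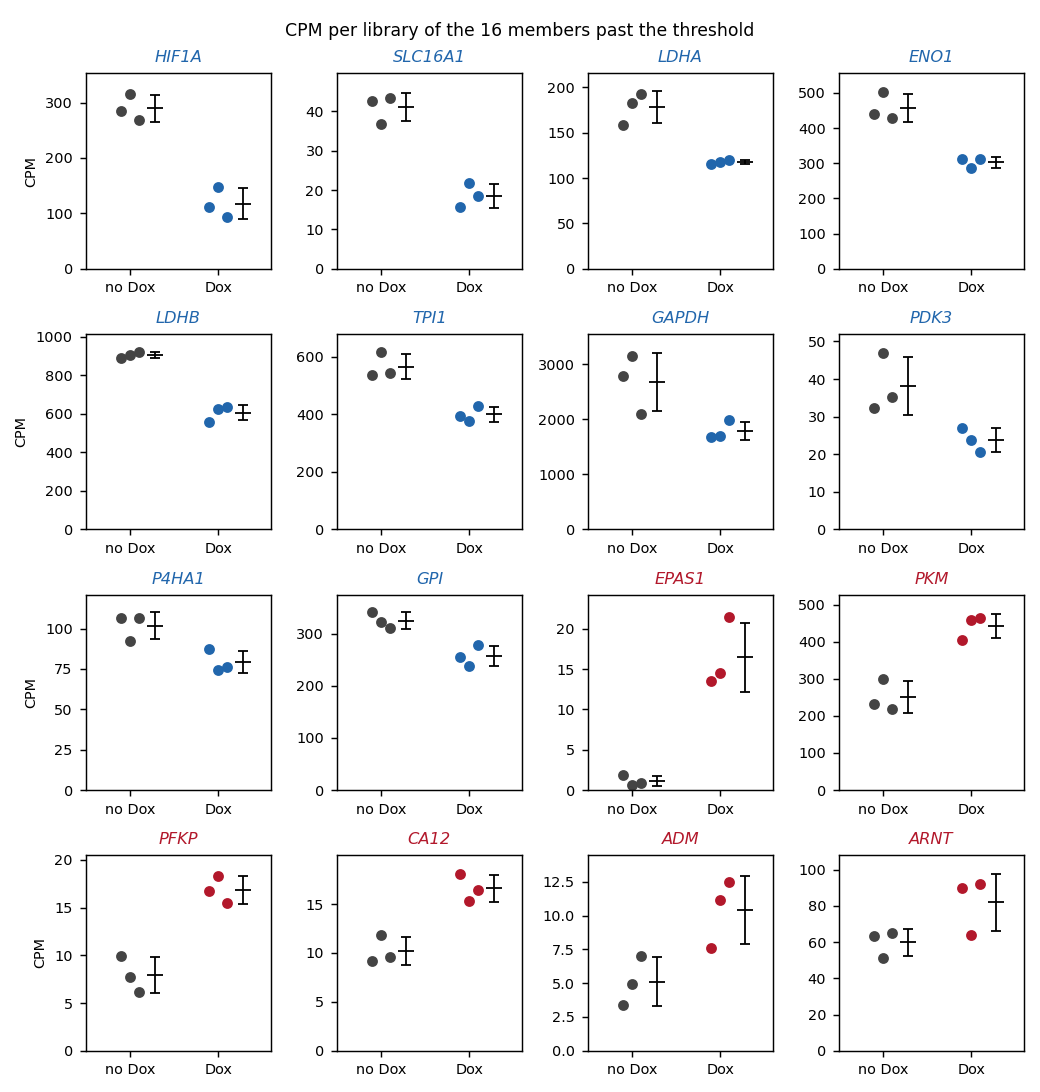
Level in CPM (y axes, each starting at 0) of the 16 members past the threshold, 1 dot per library, without and with Dox (x axes), with the mean and the SD of 3 libraries beside the dots. ARNT is the only one of the 16 in which a library with Dox lies within the range without Dox. The 16 were picked by their adjusted p on these same libraries, which favours such separation. EPAS1 is near 0 without Dox.

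Neither SLC2A1 nor the PFKFB regulators gave a call. SLC2A1, the basal glucose transporter GLUT1, was at 20.4, 19.8 and 23.0 CPM without Dox and 15.0, 15.0 and 16.3 CPM with Dox, which did not overlap but did not pass the threshold (log2 fold change -0.45, 95% interval -0.84 to -0.06, adjusted p = 0.0839). SLC2A3, the high-affinity transporter GLUT3, had at most 2 reads in a library and was not tested. The bifunctional PFKFB enzymes set the level of fructose 2,6-bisphosphate, the activator of phosphofructokinase. None of the 3 tested passed in edgeR, at an unadjusted p under 0.05 or in DESeq2, with log2 fold changes of -0.04 for PFKFB2, 0.20 for PFKFB3 and -0.35 for PFKFB4. PFKFB4, at 3.26 to 5.22 CPM, had a 95% interval of -1.04 to 0.34.

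Pyruvate dehydrogenase kinases switch off the entry of pyruvate into the citric acid cycle, and PDHA1 is the subunit that they phosphorylate. PDK3 (chromosome X, 24465244 to 24550466) was at 32.4, 46.8 and 35.1 CPM without Dox and 27.0, 23.7 and 20.5 CPM with Dox. It fell without overlap (log2 fold change -0.68, standard error 0.181, adjusted p = 0.00974), and the call was lost without replicate 2 without Dox (log2 fold change -0.53, adjusted p = 0.0588). PDHA1 was at 82.3, 88.4 and 97.2 CPM without Dox and 62.2, 76.5 and 70.5 CPM with Dox. Its log2 fold change of -0.36 lay just outside the threshold (adjusted p = 0.0559) and passed it with a replicate block (0.0333) and without replicate 2 with Dox (0.0331). PDK1, the classic HIF-1 target among the kinases, had -0.52 (95% interval -1.22 to 0.17), with 2 libraries with Dox low and 1 within the range without Dox. PDK2 had 0.20 (-0.25 to 0.66). The PDK1 and PDK2 values overlapped between conditions.

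Of the 11 other HIF targets 8 were tested, of which 1 fell and 2 rose. Of all genes tested 13.7% were lower and 11.9% higher, and a list of 8 is too short to tell its shares from these. CA12 (chromosome 15, 63321378 to 63381846), a carbonic anhydrase at the cell surface, was at 9.14, 11.8 and 9.60 CPM without Dox and 18.0, 15.3 and 16.4 CPM with Dox (log2 fold change 0.72, standard error 0.214, adjusted p = 0.0202). ADM (chromosome 11, 10305073 to 10307397), the vasodilator peptide adrenomedullin, was at 3.40, 4.96 and 6.98 CPM without Dox and 7.61, 11.1 and 12.5 CPM with Dox (log2 fold change 0.99, standard error 0.304, adjusted p = 0.0234). Neither overlapped between conditions, but both are low and both calls depended on single libraries. That of CA12 was lost without replicate 1 or 3 without Dox or replicate 1 with Dox (adjusted p 0.0924, 0.0731 and 0.0747), and that of ADM without replicate 1 or 2 without Dox or replicate 3 with Dox (0.121, 0.0604 and 0.0921). P4HA1 (chromosome 10, 73007217 to 73096974), a collagen prolyl hydroxylase, was at 107, 92.1 and 106 CPM without Dox and 87.2, 74.3 and 76.4 CPM with Dox. The groups did not overlap, and its difference of -0.36 on the log2 scale (standard error 0.130, adjusted p = 0.0487) lost its call in 11 of 14 alternative analyses (adjusted p up to 0.178).

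The other HIF targets tested did not pass the threshold. VEGFA, the angiogenic growth factor, had a log2 fold change of -0.20 (95% interval -0.52 to 0.12), and its libraries overlapped at 38.1 to 47.8 CPM without Dox and 35.3 to 39.9 CPM with Dox. The mitophagy receptors BNIP3 and BNIP3L had -0.20 (-0.55 to 0.15) and 0.31 (0.01 to 0.61, adjusted p = 0.123), with 44 pseudogenes named for BNIP3. BNIP3L passed the threshold with library totals alone (log2 fold change 0.43, adjusted p = 0.0339). KDM3A, a histone demethylase, had -0.01 (-0.36 to 0.33), and P4HA2, the second collagen hydroxylase, had -0.83 to 0.82 as its interval at 2.23 to 7.24 CPM. CA9, the carbonic anhydrase used as a hypoxia marker, had 1 read in 1 library and none in the other 5. ANKRD37 had 2 reads in 1 library with Dox and none elsewhere, and BHLHE40, a transcriptional repressor, at most 4 reads, so 3 of the 11 targets were too low to test. A count of 0 allows up to 3 reads, which is 0.394 to 0.930 CPM here and covers counting error only.

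Ratios of CPM + 0.5 within a library compare related members with little regard to scaling between libraries. Of 12 pairs listed, 9 had both genes tested, and each difference was put to an exact two-sided permutation test over the 6 libraries, in which 3 against 3 can give no p below 0.1. The conditions did not overlap for 3 pairs, all at that smallest p (adjusted p = 0.3 over the 9 pairs). The log2 ratio of EPAS1 to HIF1A was higher by 4.76 with Dox (3.87 with 2 CPM added in place of 0.5), that of SLC16A3 to SLC16A1 by 1.55, and that of BNIP3L to BNIP3 by 0.47. The ratio of ALDOC to ALDOA was higher by 0.42 (exact permutation p = 0.2), and those of PFKFB4 to PFKFB3 and PDK1 to PDK2 were lower, with differences of -0.48 (0.3) and -0.70 (0.4). P4HA2 to P4HA1 differed by 0.35 (0.6), LDHA to LDHB by -0.0092 (0.9) and HK2 to HK1 by 0.014 (1.0). The last 3 pairs differed by less than the spread between replicates.

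**Figure D3:**
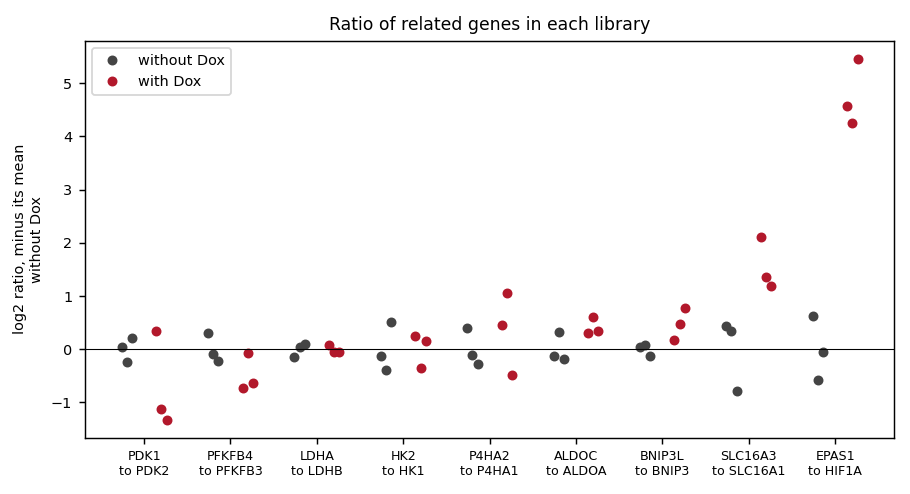
Log2 ratio of the CPM of 2 related members in each library (y axis), minus its mean without Dox, for the 9 pairs tested (x axis), grey without and red with Dox. The pairs EPAS1 to HIF1A, SLC16A3 to SLC16A1 and BNIP3L to BNIP3 are the 3 in which the conditions do not overlap, and LDHA to LDHB stays near 0 in all 6 libraries.

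Further genes of the same pathways were counted in lists compiled by hand, to be read beside the 13.7% lower and 11.9% higher of all genes. Of 33 other genes of glycolysis and pyruvate use 22 were tested, 3 were lower and 4 higher (13.6% and 18.2%), with a median log2 fold change of 0.0027. SLC16A7, the monocarboxylate transporter MCT2 with a high affinity for its substrates, was at 18.8, 14.3 and 18.3 CPM without Dox and 53.5, 51.5 and 42.6 CPM with Dox. It rose by 1.50 on the log2 scale (standard error 0.172, adjusted p = 5.64e-06) with no overlap, the opposite direction to SLC16A1. BPGM, which makes 2,3-bisphosphoglycerate, rose by 0.73 (adjusted p = 0.00886), and PGAM2, the muscle form of the mutase, by 0.59 (0.0383). SLC2A12, a further glucose transporter, fell by 0.61 (0.00283), and both subunits of the mitochondrial pyruvate carrier fell, MPC2 by 0.51 (0.0141) and MPC1 by 0.47 (0.0308).

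Of 20 genes of gluconeogenesis, glycogen and the pentose phosphate pathway 17 were tested, 3 were lower and 1 higher (17.6% and 5.88%), with a median of -0.15. PYGL, the liver glycogen phosphorylase, fell by 1.35 (adjusted p = 0.00746), and the pentose phosphate enzymes TKT and PGD fell by 0.49 (0.0115) and 0.43 (0.0262). PGM1, which joins glycogen to glycolysis, rose by 0.85 (0.00195), at 18.8, 20.5 and 18.7 CPM without Dox and 30.7, 30.6 and 41.8 CPM with Dox. Of 11 other components of the HIF pathway 8 were tested and none passed the threshold in edgeR or DESeq2, while 2 had an unadjusted p under 0.05 in edgeR, with a median of -0.15 and values from -0.35 for RBX1 (adjusted p = 0.0754) to 0.47 for CUL2 (0.0545), both parts of the VHL ubiquitin ligase.

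Of 34 further hypoxia-induced genes 28 were tested, 8 were lower and 2 higher (28.6% and 7.14%), with a median of -0.19. TFRC, the transferrin receptor, fell by 0.71 (adjusted p = 0.000431), FAM162A, a mitochondrial protein, by 0.63 (0.00163) and AK4, a mitochondrial adenylate kinase, by 0.53 (0.00318). The other 5 that fell were DDIT4, JMJD6, IGFBP3, HMOX1 and EFNA3. ZNF395 rose by 0.64 (0.00856) and EFNA1, an ephrin ligand, by 0.55 (0.00993). The share lower in this list was close to the 26.3% of the members and higher than the 13.7% of all genes, as a count and without a test of the list. Like the members, this list was chosen with earlier results of these data known, and the part of that choice in its share was not tested.

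**Figure D4:**
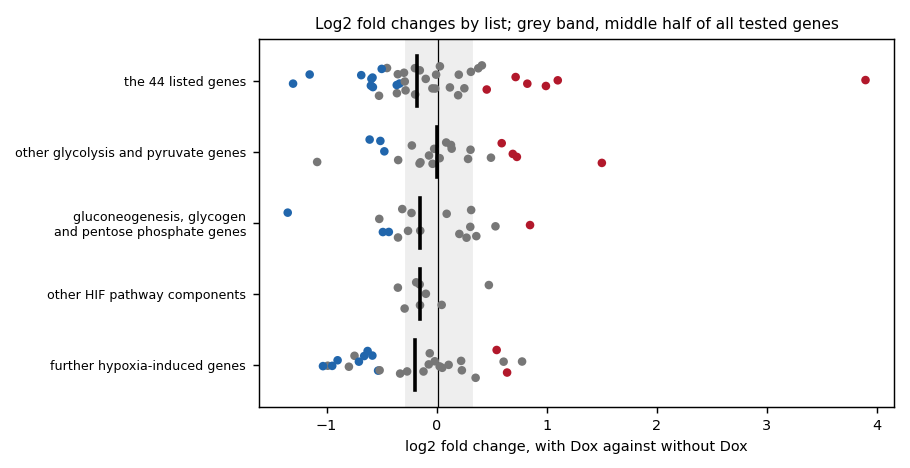
Log2 fold change with Dox against without Dox (x axis) of each tested gene of the 5 lists (y axis), blue for lower, red for higher and grey for genes not past the threshold, with a black bar at the median of each list and a grey band between the quartiles of all genes tested (-0.28 to 0.32). All 5 medians lie inside the band, from -0.19 for the further hypoxia-induced genes to 0.0027 for the other glycolysis and pyruvate genes.

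The calls differed in how firmly they stood. In all alternative analyses that gave a value, 9 of the 16 called members kept their direction and their call: the fallers TPI1, ENO1, LDHA, LDHB, SLC16A1 and HIF1A, and the risers PFKP, PKM and EPAS1. Except in the fit without a filter, EPAS1 was tested only because its libraries with Dox were high. The calls of the other 7, GPI, GAPDH, PDK3, P4HA1, ARNT, CA12 and ADM, were lost in at least 1 alternative, and none of the 16 changed direction. Scaling between libraries moved the picture as a whole. With library totals alone the median of all genes tested went from 0.016 to 0.14, and 65.7% of all calls in place of 46.4% were higher, while 8 members were lower and 8 higher. The median of the members was then -0.053, and its difference from the median of all genes was -0.19 under both scalings. A change of scaling moves all genes by about the same amount, so this difference could hardly change and is no check.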

How the data were processed

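3' mRNA libraries of 22Rv1-ABHD5 cells, 3 without and 3 with Dox, were analysed. The submitters' processing notes name CASAVA 1.8.2, FastQC, STAR, HTSeq and edgeR with hg38. Neither the annotation nor a strand setting is given in the sources used here, and the methods and the labels name different versions (REV and FWD) of the library kit. The authors deposited 1 table of raw counts per gene symbol, which were tested here, and for each library a normalized signal, not whole reads, whose method is not stated. That signal served only as an alternative (log2 of the value + 1, limma 3.58.1), without the 27 names that differ between files. Rows that name no gene were left out of library sizes, with 32.5% to 39.5% of listed reads on no feature and 3.05% to 3.37% ambiguous.

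Counts were fitted over all 6 libraries with edgeR 4.0.16 in R 4.3.3 (TMM, filterByExpr, quasi-likelihood test, Benjamini-Hochberg over 12233 genes, threshold 0.05). CPM are counts scaled to a common total, from TMM-scaled library totals of tested genes, and 3 counts were taken as the limit of detection. Standard errors and 95% intervals come from the same fit. On simulated counts of 12233 genes, those changed 2-fold were called in 79.8% of cases and those changed 4-fold in 100%. Of all calls on these simulated counts 5.38% were false. Most called members changed by less than 2-fold, and the share called at such smaller changes was not tested. The false share among the calls reported here was not tested either. Replicates differed by more than sampling noise (chi-square per degree of freedom 4.24 to 12.6).

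The members and lists were compiled by hand and chosen with earlier results of these data known. All members were to be named, those past the threshold with the value of every library, and in each further list up to 3 per direction with the smallest adjusted p. HIF components outside the threshold and the other called hypoxia genes and luminal markers were named after their values were seen. Alternatives were other normalizations, filters, DESeq2 1.42.0, a replicate block, the deposited signal and each library left out. A few marker genes are not reported here. Positions are from GENCODE 44 and promoters from RefSeq.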

Additional observations from a re-analysis of the deposited data

How the results depend on the processing

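The 14 alternatives left the count of genes called within 1.5 times the reported 3125, from 2181 without replicate 1 without Dox to 3537 with the replicate block, and ABHD5 kept its call in each. The members' median moved from -0.17 to -0.12 with upper-quartile normalization and to -0.053 with library totals alone, where the median of all genes moved as well. It ranged from -0.20 to -0.074 with 1 library left out, the last without replicate 3 without Dox. Members called lower numbered 7 to 11 over all alternatives. Members called higher numbered 3 to 6 with 1 library left out, the 3 without replicate 1 without Dox, and up to 8 otherwise. Log2 ratios near 0 changed sign when 1 library was left out: HK2 to HK1 from -0.18 to 0.27, LDHA to LDHB from -0.078 to 0.037, and P4HA2 to P4HA1 from -0.013 to 0.76. EPAS1 could not be tested with at least 10 counts in every library.

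Replicate numbers were not taken as pairs, since same-numbered deviations correlated across genes with r = -0.0096, 0.23 and 0.086. With the replicate block, 11 members were lower and 7 higher, PDHA1 and PFKL passing in addition. Depth limits genes under about 10 CPM most, where 95% intervals reached 0.824 to either side.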
